A study of Mus musculus with 2 samples.

Results

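Fibroblast growth factors (FGFs) and the transcripts that answer them were followed through single cells of mouse epiblast cultures. The set held 8 genes of the 33696 in the deposited matrix, taken by symbol: the 3 ligands Fgf4, Fgf8 and Fgf17, and the 5 genes Spry2, Spry4, Dusp6, Etv4 and Etv5, commonly read as targets of ERK signalling. All 8 had UMIs (unique molecular identifiers, each a tagged transcript molecule) in the kept cells. The study described 2 samples of the mouse line Delmix, with 1 sample per group: untreated epiblast stem cells, a pluripotent culture that resembles the post-implantation embryo, and embryoid bodies, aggregates made from those cells and taken on day 2. Both were dissociated with trypsin and profiled with droplet-based 3' single-cell RNA sequencing. The labels give no transgene, mutation or added agent, and they do not say whether the line is a single clone. The counts lie in 1 pooled matrix whose tag names match no sample label, so no cell could be placed in a sample and embryoid bodies were not compared with epiblast stem cells.

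FGF ligands bind receptor tyrosine kinases together with heparan sulphate and drive the RAS, RAF, MEK and ERK kinase relay. ERK activity in turn switches on its own brakes, among them the Sprouty proteins, which act on the relay upstream of ERK, and the phosphatase DUSP6, which removes phosphate from ERK in the cytoplasm, along with the ETS transcription factors of the PEA3 group, to which ETV4 and ETV5 belong. In the mouse embryo Fgf4 is the ligand of the early epiblast, Fgf8 is needed for cells to leave the primitive streak, and Fgf17 is a close relative of Fgf8.

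Of 21593 called cells, 16841 (78.0%) were kept: those in which 1000 genes or more were detected and mitochondrial UMIs did not pass 10%. They had a median of 6473 UMIs (range 1265 to 34748). Levels are CPM, the UMIs of a gene summed in each cluster and scaled to its total. With 1 pooled sample there is no replicate, so no p-value or standard error was computed; 95% intervals are exact and cover counting error only. Cells were clustered without the 8 genes, the other FGF pathway genes and cell cycle genes, so the levels below were not used to draw the clusters. There were 13 clusters, of which 11 held at least 100 cells and are compared here. Those named from marker lists were naive pluripotency-like (cluster 1, 4756 cells), simple epithelium-like (cluster 5, 883), primitive streak and mesoderm-like (cluster 7, 663), fibroblast or feeder-like (cluster 8, 532), neuroectoderm-like (cluster 10, 246) and two-cell-like (cluster 11, 207). The others are called by genes that lead them: Car4 and Fgf5 (cluster 2, 3843 cells), Ptprt and Anks1b (cluster 3, 3052), Meis2, T and Fgf8 itself (cluster 4, 1475), and Rhox6 and Rhox9 (cluster 9, 372). Cluster 6 (685 cells) was shallow: its median depth was 2689 UMIs, and its median mitochondrial share 8.14% where that of all kept cells was 3.14%. Scrublet called 12.7% of kept cells doublets, with 19.8% in cluster 7, 24.1% in cluster 8 and 0.269% in cluster 9; without them the levels of Fgf4 in clusters 4, 7 and 8, of Fgf8 in clusters 8 and 11 and of Fgf17 in cluster 8 moved by over 1.5 times, and those values are given below.

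The 3 ligands were separated between cell states. Fgf4 and Fgf17 stood highest in naive pluripotency-like cells, and Fgf8 stood highest in the Meis2 and T cluster and in streak and mesoderm-like cells, where Fgf4 was low.

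Fgf4 (ENSMUSG00000050917) stood at 57.6 CPM (55.2 to 60.1) in the naive pluripotency-like cluster. It stood at 36.0 CPM in cluster 2, 22.6 in cluster 3, 12.5 in cluster 4, 23.4 in cluster 5, 40.6 in cluster 6, 12.0 in cluster 7, 10.1 in cluster 8, 24.3 in the Rhox cluster, 6.97 in neuroectoderm-like and 29.8 in two-cell-like cells. Cluster 1 lay above every other cluster, and the lowest group, clusters 4, 7, 8 and 10, had overlapping intervals. The ratio of the highest to the lowest was 8.26 (4.34 to 18.1). With each cell thinned to 2000 UMIs, 10.0% of naive pluripotency-like cells had a UMI of Fgf4 (9.20 to 10.9%), and 31.3% before thinning. Fibroblast or feeder-like cells, which should lack the ligand, had 1.13% (0.416 to 2.44%) and 6.58% before thinning. The median depths were 6930.5 and 7387 UMIs. The thinned shares of clusters 4, 7, 9, 10 and 11, at 2.32%, 1.69%, 2.97%, 1.32% and 3.92%, had intervals that overlapped the fibroblast interval. Those of clusters 4, 7 and 10 are read as background. Clusters 9 and 11 are not, since their CPM (18.4 to 31.5 and 21.8 to 39.7) lay above that of cluster 8 (7.42 to 13.4). Thinned to 4000 UMIs, their shares were 8.41% and 10.6%, against 2.41% in cluster 8. Cell-free droplets held Fgf4 at 38.2 CPM, with a median of 215 UMIs per droplet. With that many UMIs of the droplet profile subtracted per cell, Fgf4 stood at 58.2 CPM in cluster 1 and 5.64 CPM in cluster 10. Without called doublets Fgf4 stood at 5.89 CPM in cluster 4, 4.95 in cluster 7 and 4.56 in cluster 8, which then was the lowest.

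Fgf8 (ENSMUSG00000025219) showed the widest range of the 8 genes. It stood at 443 CPM (431 to 456) in the Meis2 and T cluster and at 310 CPM (294 to 327) in the streak and mesoderm-like cluster. Elsewhere it stood at 5.49 CPM in cluster 1, 27.8 in cluster 2, 21.7 in cluster 3, 25.2 in cluster 5, 17.1 in cluster 6, 31.8 in cluster 8, 5.96 in the Rhox cluster, 34.9 in neuroectoderm-like and 31.1 in two-cell-like cells. Clusters 4 and 7 stood apart from all others and from each other, and the naive pluripotency-like and Rhox clusters shared the bottom. The ratio of cluster 4 to cluster 1 was 80.7 (70.0 to 93.5). After thinning, 55.0% of cluster 4 cells (52.4 to 57.5%) and 34.8% of cluster 7 cells (31.2 to 38.6%) had a UMI of Fgf8, and 83.5% and 51.6% before thinning. Fibroblast or feeder-like cells had 3.77% (2.32 to 5.76%), and clusters 2, 3 and 5 lay at 4.77%, 3.59% and 3.98%, within that interval. Naive pluripotency-like cells lay below it, at 0.742% (0.517 to 1.03%). Cell-free droplets held Fgf8 at 37.0 CPM, more than 9 of the 11 clusters. With the droplet profile subtracted as for Fgf4, Fgf8 stood at 455 CPM in cluster 4 and 4.58 CPM in cluster 1. Without called doublets Fgf8 stood at 526 CPM in cluster 4, 391 CPM in cluster 7, 13.7 CPM in cluster 8 and 19.5 CPM in cluster 11. Clusters 2, 3 and 5 then stood at 27.7, 21.4 and 24.1 CPM, above the fibroblast or feeder-like cluster. The shares of cells above were taken with doublets left in. Among the clusters too small to rank, the 46 cells of cluster 13, led by Shh and Lmx1a, held Fgf8 at 99.9 CPM (65.3 to 146).

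Fgf17 (ENSMUSG00000022101) was sparse, and its highest cluster was that of Fgf4 and not that of its relative Fgf8. It stood at 17.9 CPM (16.5 to 19.3) in the naive pluripotency-like cluster, at 9.72 CPM (7.98 to 11.7) in the Meis2 and T cluster and at 8.67 CPM (6.17 to 11.9) in the streak and mesoderm-like cluster. In clusters 2 and 3 it stood at 6.61 and 3.82 CPM, and in clusters 5, 6, 8, 9, 10 and 11 at 6.95, 6.36, 3.66, 2.13, 6.2 and 7.12 CPM. Only cluster 1 stood apart from its neighbour in this order. A thinned UMI of Fgf17 was found in 3.64% of naive pluripotency-like cells (3.13 to 4.22%) and in 0.377% of fibroblast or feeder-like cells (0.0456 to 1.35%). Before thinning these shares were 11% and 2.07%. Without called doublets Fgf17 in cluster 8 was at 0.976 CPM.

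The ligands were also counted in the same cells at equal depth. UMIs of both Fgf4 and Fgf8 were found in 42 of 16547 thinned cells, against 85.2 cells from the product of their shares over the whole library. Within clusters 1, 2 and 4 the count lay near the product: 19 cells against 18.7 in cluster 4, 3 against 3.51 in cluster 1 and 13 against 11.4 in cluster 2. Of the 19 cells in cluster 4, 8 were called doublets. Fgf4 and Fgf17 were found together in 30 cells, against 18.5 from the product over the library, and in 22 against 17.3 within cluster 1. Fgf8 and Fgf17 were found together in 31 cells over the library, against 27.6. Cluster 4 had 23 such cells against 18.1, and cluster 7 had 4 against 2.79. Clusters 1 and 2 had 1 against 1.28 and 2 against 2.34. In clusters 1, 2 and 4, the counts of cells with both Fgf4 and Fgf8 thus lay near what their shares give, at this depth. Fgf4 in cluster 4 was read as background, and the Fgf8 shares of clusters 1 and 2 did not lie above the fibroblast interval. Background UMIs give counts near the product in any case, so no conclusion is drawn on these 2 ligands in the same cell. Cluster 3 had 2 cells with both against 3.91. Its cells with Fgf4 held 0.416 times the Fgf8 of those without (0.0499 to 1.54). Thinned to 4000 UMIs this ratio was 0.548 (0.27 to 0.997), below 1 beyond counting error. In cluster 4, cells with Fgf8 held 1.86 times the Fgf17 of those without (0.883 to 4.19). In cluster 7 the ratio was 1.87 (0.349 to 10.0). Thinned to 4000 UMIs these ratios were 2.9 (1.23 to 8.33) and 3.26 (1.23 to 10.1). At that depth clusters 2 and 3 gave 0.728 (0.23 to 1.77) and 0.973 (0.193 to 3.05). Fgf17 in cluster 1 cells with Fgf4 gave 1.23 (0.751 to 1.93), and 1.35 (1.03 to 1.76) at 4000 UMIs.

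**Figure D1:**
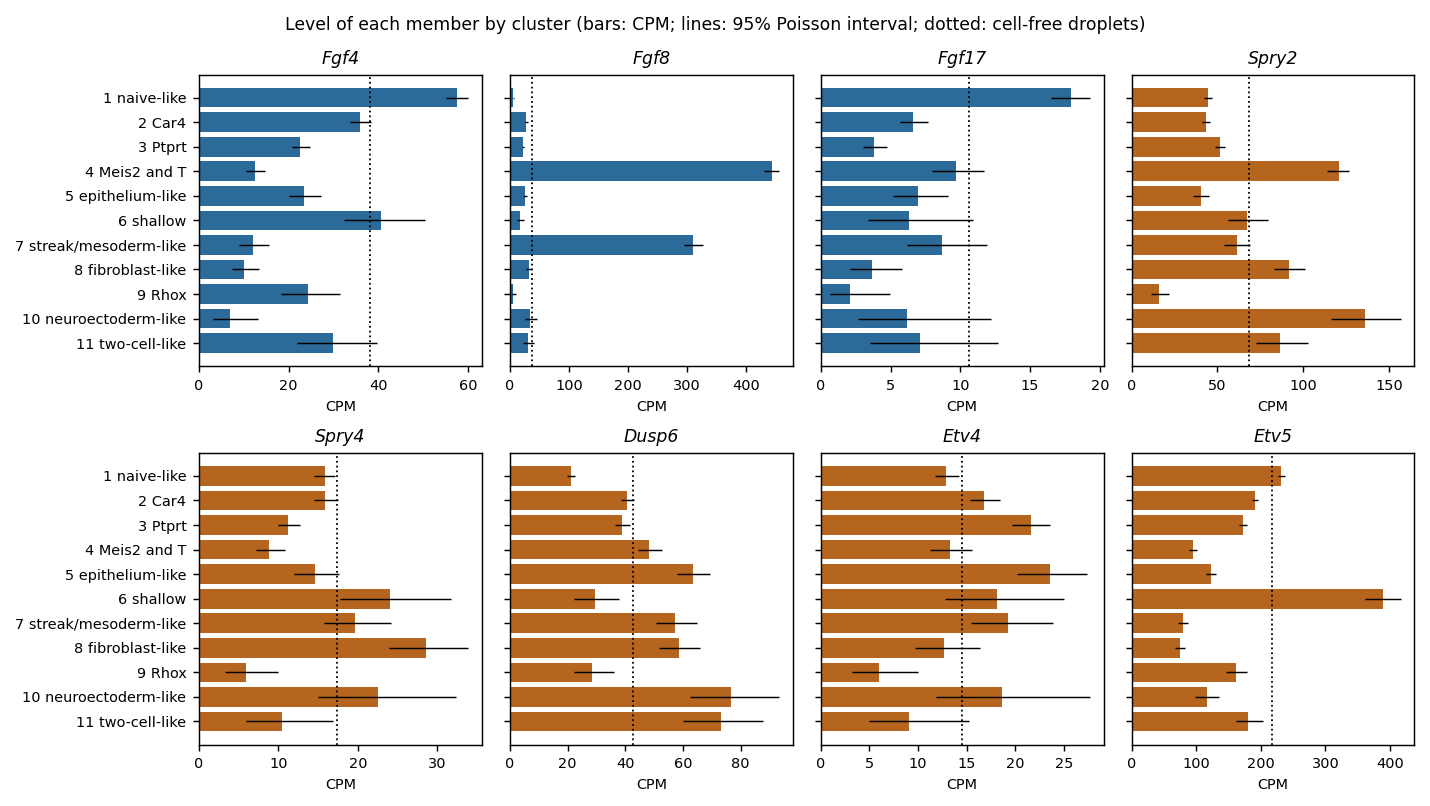
Level of each of the 8 genes in the 11 clusters of at least 100 cells, in CPM on linear axes that start at 0, with ligands in blue and targets in brown. Lines are exact 95% Poisson intervals and the dotted line is the level in cell-free droplets. Fgf8 reaches 443 and 310 CPM in clusters 4 and 7, while Fgf4 and Fgf17 are highest in cluster 1 and Etv5 in cluster 6.

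The targets did not follow 1 common pattern. Etv5 was high where Fgf4 was high and low where Fgf8 was high, Spry2 was high in the Meis2 and T cluster, Dusp6 was lowest in naive pluripotency-like cells, and Spry4 was low in the Meis2 and T cluster.

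The RefSeq promoters of Fgf4, Spry2, Dusp6 and Etv5 are shown, as these are the members for which an entry of the RefSeq promoter table was used. Each runs 5′ to 3′ from 250 bases before to 50 bases after the transcription start, on GRCm38.p6. Capitals mark CCGGAA, an ETS site that contains the shorter ETS core GGAA, searched on both strands. GGAA alone was not searched. The windows are chr7:144861136-144861435 (plus strand) for Fgf4, chr14:105896770-105897069 (minus strand) for Spry2, chr10:99262981-99263280 (plus strand) for Dusp6 and chr16:22439521-22439820 (minus strand) for Etv5.
Fgf4: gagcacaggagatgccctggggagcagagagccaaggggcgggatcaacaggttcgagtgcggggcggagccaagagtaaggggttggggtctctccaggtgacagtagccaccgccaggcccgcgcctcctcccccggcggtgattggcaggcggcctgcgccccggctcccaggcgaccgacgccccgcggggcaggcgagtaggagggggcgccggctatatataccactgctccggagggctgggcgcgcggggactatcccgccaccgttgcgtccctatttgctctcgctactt
Spry2: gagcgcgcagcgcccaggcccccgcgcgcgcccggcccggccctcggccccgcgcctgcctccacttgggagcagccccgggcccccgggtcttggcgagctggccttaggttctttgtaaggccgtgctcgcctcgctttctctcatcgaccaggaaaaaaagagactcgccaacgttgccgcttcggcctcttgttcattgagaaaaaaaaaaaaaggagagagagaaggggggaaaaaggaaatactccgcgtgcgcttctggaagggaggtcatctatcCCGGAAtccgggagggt
Dusp6: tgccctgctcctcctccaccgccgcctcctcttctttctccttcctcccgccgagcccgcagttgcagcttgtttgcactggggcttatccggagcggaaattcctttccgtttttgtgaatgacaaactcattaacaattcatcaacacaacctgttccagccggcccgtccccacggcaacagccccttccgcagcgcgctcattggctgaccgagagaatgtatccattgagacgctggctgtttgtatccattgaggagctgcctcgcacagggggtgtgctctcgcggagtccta
Etv5: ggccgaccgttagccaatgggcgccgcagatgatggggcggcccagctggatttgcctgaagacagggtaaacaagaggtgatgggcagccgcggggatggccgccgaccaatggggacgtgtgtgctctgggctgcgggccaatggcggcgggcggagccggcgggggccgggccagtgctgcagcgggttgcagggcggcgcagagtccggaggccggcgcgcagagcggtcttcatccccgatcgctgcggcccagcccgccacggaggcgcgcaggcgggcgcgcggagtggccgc
CCGGAA was found once, in the Spry2 window at base 34 after the start, and in 14.9% of all 32851 promoters of this length. The longer form ACCGGAAG, which contains CCGGAA (2.30% of promoters), and CTTTGA, the core bound by TCF and LEF factors (16%), were in none of these windows. Neither was in the window of a second Etv5 start. A match of letters is a description of the window and not of binding.

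Spry2 (ENSMUSG00000022114), a Sprouty inhibitor of receptor tyrosine kinase signalling, stood at 136 CPM (116 to 157) in the neuroectoderm-like cluster and at 121 CPM (114 to 127) in the Meis2 and T cluster, which were not apart. It stood at 91.8 CPM in cluster 8, 86.7 in cluster 11, 67.1 in cluster 6, 61.2 in cluster 7, 51.6 in cluster 3, 44.7 in cluster 1, 43.3 in cluster 2, 40.5 in cluster 5 and 15.8 (11.1 to 21.7) in cluster 9. The Rhox cluster was the only one clearly below the rest. The ratio of highest to lowest was 8.60 (6.01 to 12.6). Cell-free droplets held 68.7 CPM. In the streak and mesoderm-like cluster Spry2 did not stand apart from the shallow cluster. Cluster 7 against cluster 4 gave 0.507 for Spry2 and 0.700 for Fgf8. Of the 4 members that reached 20 CPM in that contrast none changed 2-fold, which 4.69% of genes did upward and 2.70% downward. The neuroectoderm-like cluster held Spry2 at 1.13 times cluster 4 (0.956 to 1.32) and Fgf8 at 0.0787 times (0.0573 to 0.105). Upward 2-fold changes between these clusters were found for 7.86% of genes and downward ones for 1.51%; of 5 members Spry4 (2.54 times) was among the former and Fgf8 among the latter. Called doublets made up 17.9% of cluster 10 and 16.6% of cluster 4, and Spry2 stood at 148 CPM in cluster 10 without them.

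Spry4 (ENSMUSG00000024427), the second Sprouty gene of the set, was low in the Meis2 and T cluster, where Spry2 was high. It was at 8.83 CPM (7.18 to 10.8) there, 0.560 times its level in the naive pluripotency-like cluster (0.447 to 0.694). It was at 15.8 CPM in cluster 1, 15.9 in cluster 2, 11.2 in cluster 3, 14.6 in cluster 5, 24.0 in cluster 6, 19.6 in cluster 7, 28.6 in cluster 8, 5.96 in the Rhox cluster, 22.5 in neuroectoderm-like and 10.4 in two-cell-like cells. Each of the 7 highest clusters overlapped its neighbour in the order, and both Sprouty genes were high in clusters 8 and 10. Cluster 7 held 2.22 times the level of cluster 4 (1.64 to 2.98), the opposite direction to Spry2.

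Dusp6 (ENSMUSG00000019960), the phosphatase of cytoplasmic ERK, was lowest where Fgf4 was highest, at 21.2 CPM (19.7 to 22.7) in naive pluripotency-like cells. It was at 40.7 CPM in cluster 2, 38.9 in cluster 3, 48.4 in cluster 4, 63.5 in cluster 5, 29.4 in cluster 6, 57.4 in cluster 7, 58.5 in cluster 8, 28.5 in the Rhox cluster, 76.7 in neuroectoderm-like and 73.1 in two-cell-like cells. The 5 highest clusters (10, 11, 5, 8 and 7) were not apart from their neighbours. Against cluster 1 the ratio was 1.92 in cluster 2, 2.28 (2.04 to 2.55) in cluster 4 and 2.71 in cluster 7. Thinned cells with a UMI of Dusp6 made up 3.75% of cluster 1 and 9.96% of cluster 4, and 14.0% and 28.1% before thinning. The 46 cells of cluster 13 held 123 CPM (84.1 to 174). The other targets there were Spry2 at 42.3 CPM, Spry4 at 3.84 (1 UMI), Etv4 at 23.1 and Etv5 at 108. In all kept cells these stood at 56.1, 14.8, 16.2 and 179 CPM.

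Etv5 (ENSMUSG00000013089), an ETS factor of the PEA3 group, stood at 232 CPM (227 to 237) in naive pluripotency-like cells, 191 in cluster 2, 173 in cluster 3, 95 in cluster 4, 123 in cluster 5, 389 (362 to 417) in cluster 6, 79.4 in cluster 7, 74.2 in cluster 8, 162 in the Rhox cluster, 116 in neuroectoderm-like and 181 in two-cell-like cells. The shallow cluster lay highest, naive pluripotency-like cells next, and the streak and mesoderm-like and fibroblast or feeder-like clusters shared the bottom. Relative to naive pluripotency-like cells the ratio was 0.409 (0.383 to 0.436) in the Meis2 and T cluster and 0.342 in the streak and mesoderm-like cluster. Cell-free droplets held 217 CPM. Without the shallow cluster, an alternative chosen after seeing the data, naive pluripotency-like cells were the highest and the ratio of highest to lowest, with 1 CPM added to each, was 3.10 in place of 5.18. What the depth and the mitochondrial share of cluster 6 contribute to its Etv5 level was not tested. After thinning, 36.7% of naive pluripotency-like cells, 15.6% of cluster 4 cells and 12.6% of fibroblast or feeder-like cells had a UMI of Etv5; before thinning these were 75.5%, 42.8% and 38.5%.

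Etv4 (ENSMUSG00000017724), of the same ETS group, did not share this order. It stood at 12.9 CPM in cluster 1, 16.8 in cluster 2, 21.6 in cluster 3, 13.3 in cluster 4, 23.6 in cluster 5, 18.1 in cluster 6, 19.3 in cluster 7, 12.7 in cluster 8, 5.96 in the Rhox cluster, 18.6 in neuroectoderm-like and 9.06 in two-cell-like cells. Each of the 6 highest overlapped its neighbour in the order, and cluster 4 was at 1.03 times cluster 1 (0.848 to 1.24). Across the 11 clusters, which share 1 library, Pearson's r of the log2 levels was -0.06 between Etv4 and Etv5 and 0.49 between Spry2 and Spry4. It was 0.83 between Fgf4 and Etv5, -0.70 between Fgf4 and Dusp6, 0.58 between Fgf8 and Spry2 and -0.63 between Fgf8 and Etv5.

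The Rhox6 and Rhox9 cluster was at the bottom for several members. Against naive pluripotency-like cells its ratio was 0.119 for Fgf17, 0.353 for Spry2, 0.378 for Spry4 and 0.461 for Etv4, while Fgf8 was at 1.09 times. Of the 4 members that reached 20 CPM, 2 were at least 2-fold lower (Spry2 and Fgf4, at 0.421 times), as were 2.87% of all genes, and none as much higher, as were 2.66%. This cluster raised 8 of 9 germ cell markers and 8 of 13 naive pluripotency markers. Rhox6 and Rhox9 were put in the germ cell list with earlier results of these data known, so no cell type name is given to it.

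**Figure D2:**
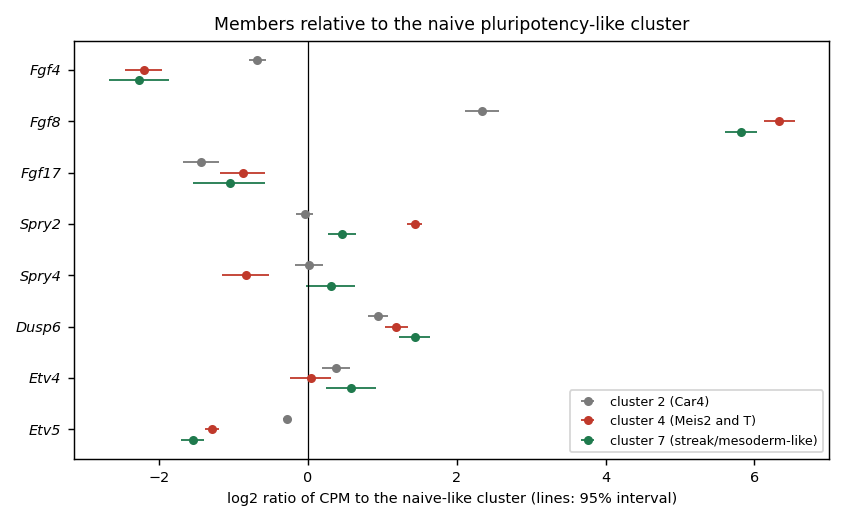
Log2 ratio of each gene's CPM to its level in the naive pluripotency-like cluster, for clusters 2, 4 and 7, with exact 95% intervals. In clusters 4 and 7 Fgf8 and Dusp6 lie to the right of 0 and Fgf4, Fgf17 and Etv5 to the left, and Spry4 lies to the left in cluster 4 alone of the 3.

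These ranges were set beside those of all genes. Of the 8 genes, 7 reached 20 CPM in some cluster, Fgf17 being the exception, and 5 of them varied at least 4-fold between the highest and lowest cluster (with 1 CPM added). Of all 9821 genes that reached 20 CPM, 44.3% varied as much. The median ratio was 5.18 over the 7 genes and 3.62 over all. Fgf8 lay at the 97.6th percentile of genes, Spry2 at the 80.3rd, Fgf4 at the 78.2nd, Dusp6 at the 48.0th and Etv4 at the 48.4th. Between the Meis2 and T cluster and the naive pluripotency-like cluster, 5 members reached 20 CPM; 3 were at least 2-fold higher in the former (Fgf8, Spry2 and Dusp6), beside 7.41% of all genes, and 2 at least 2-fold lower (Fgf4 and Etv5), beside 5.57%. For the streak and mesoderm-like cluster against the naive one, Fgf8 and Dusp6 were higher, beside 11.2% of genes, and Fgf4 and Etv5 lower, beside 6.96%. For cluster 2, led by Car4, against the naive one, Fgf8 alone of 5 members was at least 2-fold higher (5.07 times, 4.33 to 5.95), beside 2.18% of genes, and none as much lower, beside 3.00%. The 3 contrasts share the naive pluripotency-like cells.

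Within a cluster, cells with a ligand UMI were set against cells without one at equal depth. In naive pluripotency-like cells, Etv5 stood at 294 CPM in the 474 cells with Fgf4 and at 232 CPM in the 4246 without, a ratio of 1.27 (1.11 to 1.44); thinned to 4000 UMIs the ratio was 1.07 (0.992 to 1.16). Ratios of at least 1.5 were found for 1.39% of genes in that split, and ratios as far below 1 for 1.93%. In the Meis2 and T cluster, at 2000 UMIs per cell, no target differed beyond counting error between the 806 cells with Fgf8 and the 660 without: the ratio was 0.999 (0.806 to 1.24) for Spry2, 1.13 (0.813 to 1.57) for Dusp6 and 0.832 (0.644 to 1.08) for Etv5. Thinned to 4000 UMIs, Etv5 gave 0.746 (0.611 to 0.915), lower in cells with Fgf8. At that depth doublets were 12.6% of the cells with Fgf8 and 30.8% of those without. Without doublets, at 2000 UMIs, Etv5 gave 0.793 (0.588 to 1.07), an interval that includes 1. At 2000 UMIs 2.11% of genes were at least 1.5-fold higher and 3.71% as much lower, and doublets were 10.3% and 24.5% of the cells. In the streak and mesoderm-like cluster, Spry2 stood at 92.9 CPM in the 226 cells with Fgf8 and 53.2 CPM in the 423 without, a ratio of 1.75 (1.12 to 2.72), and Spry4 and Dusp6 gave 1.76 (0.833 to 3.71) and 1.60 (0.988 to 2.57). Etv4 gave 0.374 (0.0930 to 1.12). A ratio of at least 1.5 was found for 9.73% of all genes there, and one as far below 1 for 11.9%. Doublets were 13.3% of the cells with Fgf8 and 23.9% of those without; without doublets the Spry2 ratio was 1.94 (1.19 to 3.19). Etv5 gave 0.836 there, its interval including 1, and 1.36 (0.969 to 1.92) at 4000 UMIs.

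The same splits were made in clusters 2 and 3 for Fgf4 and Fgf8, and in cluster 1 for Fgf17. Of their ratios 1 lay beyond counting error at 2000 UMIs: Etv4 in cluster 2, at 0.254 (0.0304 to 0.937) from 2 UMIs in the 239 cells with Fgf4, and 0.743 (0.451 to 1.16) at 4000 UMIs. Etv5 in cluster 3 cells with Fgf4 gave 1.28 (0.929 to 1.73), 1.19 (1.01 to 1.39) at 4000 UMIs and 1.52 (1.09 to 2.07) without doublets. In cluster 3 cells with Fgf8, Etv5 gave 0.928 (0.635 to 1.31), and 0.740 (0.599 to 0.906) at 4000 UMIs. Also at 4000 UMIs, cluster 3 gave 0.528 (0.250 to 0.990) for Etv4 with Fgf4 and 1.48 (1.06 to 2.02) for Dusp6 with Fgf8, and cluster 1 gave 0.409 (0.149 to 0.906) for Etv4 with Fgf17. For the Fgf4 split, 5.15% of genes were at least 1.5-fold higher and 5.02% as much lower in cluster 2, and 11.6% and 11.7% in cluster 3. For the Fgf8 split these shares were 6.60% and 6.97% in cluster 2 and 12.4% and 12.2% in cluster 3, and for the Fgf17 split in cluster 1 they were 6.95% and 9.15%.

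The streak and mesoderm-like cluster held UMIs of genes from several stages of mesoderm. Cells with a UMI of T, Mixl1 or Mesp1, factors of the streak and nascent mesoderm, were set against cells with a UMI of Hand1, Kdr or Tal1, genes of lateral, extraembryonic and blood-forming mesoderm. This split was chosen after seeing the data. Fgf8 stood at 588 CPM in the 198 cells of the former kind and at 56.2 CPM in the 89 of the latter, a ratio of 10.5 (5.59 to 22.1). Spry2 stood at 104 against 22.5 CPM (ratio 4.61, 1.67 to 17.7) and Dusp6 at 75.8 against 28.1 CPM (ratio 2.70, 1.04 to 8.90). Thinned to 4000 UMIs these ratios were 2.64 (1.48 to 5.05) and 1.78 (1.03 to 3.24), and without doublets that of Dusp6 was 2.88 (0.999 to 11.4). Spry4 gave 1.57 (0.494 to 6.56), and 11.5 (1.88 to 473) at 4000 UMIs, from 24 UMIs against 1. Etv5 gave 5.62 (1.40 to 48.9) from 25 and 2 UMIs, and 1.23 (0.733 to 2.15) when cells were thinned to 4000 UMIs instead. In this split 20.1% of all genes were at least 1.5-fold higher and 18.8% as much lower. A split of the Meis2 and T cluster by T was not planned either, and T was the gene most like Fgf8 over the clusters. The 258 cells of that cluster with a UMI of T held 1.45 times the Fgf8 of those without (1.28 to 1.64). They held 1.55 times the Dusp6 (1.05 to 2.24), beside 7.46% of genes at least 1.5-fold higher and 5.48% lower. Thinned to 4000 UMIs, the Dusp6 ratio was 1.12 (0.845 to 1.47).

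**Figure D3:**
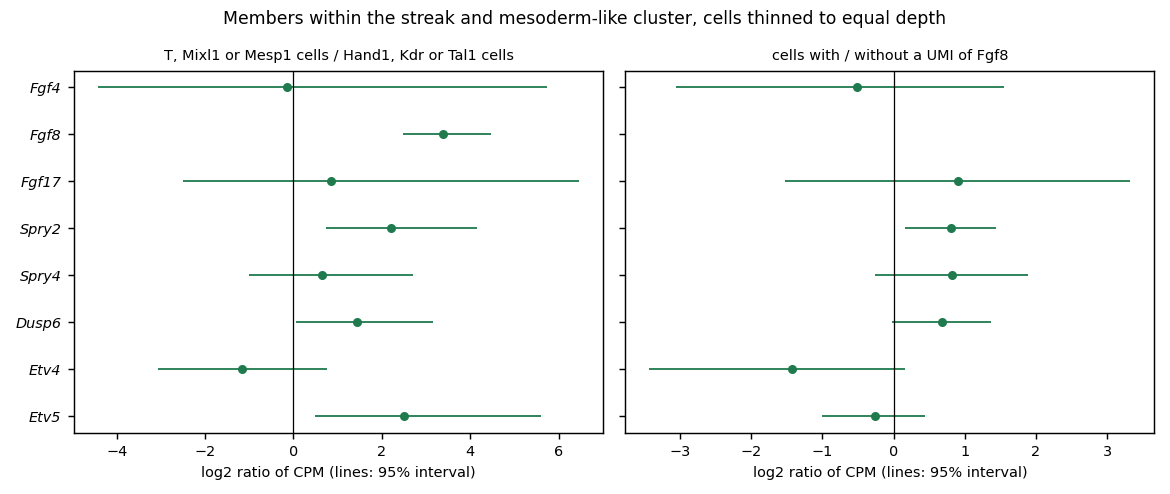
Log2 ratio of CPM within the streak and mesoderm-like cluster, in cells thinned to 2000 UMIs, with exact 95% intervals. Left, cells with a UMI of T, Mixl1 or Mesp1 over cells with a UMI of Hand1, Kdr or Tal1; right, cells with over without a UMI of Fgf8, where Fgf8 itself defines the split and is not drawn. Spry2 lies to the right of 0 in both panels.

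Of 19 other FGF genes in the matrix 8 reached 20 CPM in a cluster, and 8 of these varied at least 4-fold, as did 44.3% of all genes; the remaining 11 were too low to call. A gene that reaches 20 CPM only in its highest cluster must vary widely, so this count is no result about the family. Fgf10, a mesenchymal ligand, stood at 200 CPM in the streak and mesoderm-like cluster, 15.9 CPM in cluster 8 and 0 in cluster 10, and Fgf3 at 28.0 CPM in cluster 7. Fgf15, a ligand of the caudal and neural embryo, stood at 81.2 CPM in the Meis2 and T cluster and 70.5 CPM in the neuroectoderm-like cluster, and at 0.852 CPM in the Rhox cluster. Fgf7, a stromal ligand, stood at 49.5 CPM in fibroblast or feeder-like cells. Fgf5, a marker of the primed epiblast, stood at 55.7 CPM in cluster 2 and 8.86 CPM in cluster 1. As a share of all FGF gene UMIs, Fgf4 made up 38.1% in cluster 1, 17% in cluster 2 and 1.82% in cluster 4, and Fgf8 made up 3.63%, 13.1% and 64.7%. UMIs are not scaled by transcript length, so each share is read across clusters and not between genes. The summed FGF genes stood at 151 CPM in cluster 1, 685 CPM in cluster 4 and 643 CPM in cluster 7. These sums include Fgf11, Fgf12, Fgf13 and Fgf14, which are not read here as ligands. Their part differed between clusters. Fgf13 and Fgf14 stood at 23.1 and 3.39 CPM in cluster 1, 45.9 and 12.1 CPM in cluster 3 and 85.2 and 33.3 CPM in cluster 6.

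**Figure D4:**
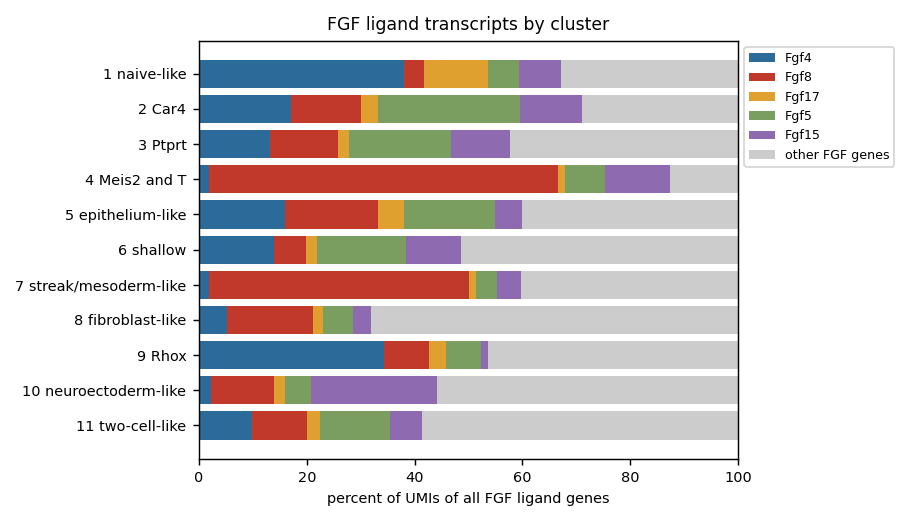
Percent of the UMIs of all FGF genes that belong to Fgf4, Fgf8, Fgf17, Fgf5, Fgf15 and the other FGF genes, in each of the 11 clusters. The sum includes Fgf11, Fgf12, Fgf13 and Fgf14, which are not read here as ligands. Fgf8 takes 64.7% in cluster 4 and 48.2% in cluster 7, and Fgf4 takes 38.1% in cluster 1 and 34.3% in cluster 9.

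Receptors and cofactors were read by the same rule. Fgfr1, the main FGF receptor of the epiblast and mesoderm, stood at 55.8 CPM in cluster 1, 143 CPM in cluster 4, 147 CPM in cluster 7 and 173 CPM in cluster 8. Fgfr2, an epithelial FGF receptor, stood at 153, 156, 121 and 74.0 CPM in the same clusters. Of 11 receptors and cofactors that reached 20 CPM, 8 varied at least 4-fold, beside 44.3% of all genes. Gpc3, a heparan sulphate proteoglycan, stood at 1020 CPM in the streak and mesoderm-like cluster, and Flrt2, a membrane protein that binds FGF receptors, at 323 CPM in cluster 8. Flrt3, its relative, stood at 27.9 CPM in cluster 10 and 20.7 CPM in cluster 7, and Ext1, which builds heparan sulphate chains, at 790 CPM in the shallow cluster 6.

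In the RAS to ERK relay, 7 of 19 genes that reached 20 CPM varied at least 4-fold, beside 44.3% of all genes, and their median ratio was 3.13, beside 3.62. Of the 4 that varied most, the adaptor Gab1 (364 CPM), the exchange factor Sos1 (164 CPM) and the kinase Braf (345 CPM) were highest in the shallow cluster. Rps6ka1, a kinase downstream of ERK, stood at 56.8 CPM there and 55.9 CPM in naive pluripotency-like cells. Of 13 other feedback inhibitors that reached 20 CPM, 9 varied at least 4-fold, beside the same 44.3%. Spry1, a further Sprouty gene, stood at 58.9 CPM in the neuroectoderm-like cluster and 4.53 CPM in the two-cell-like cluster. Dusp2, a nuclear phosphatase of ERK, stood at 29.6 CPM in cluster 7 and 0.552 CPM in cluster 1, and Errfi1, an inhibitor of the EGF receptor, at 161 CPM in cluster 8. Nf1, a brake on RAS, stood at 193 CPM in the shallow cluster. Of 13 other ERK-responsive transcripts, 10 varied at least 4-fold, beside 44.3%, among them Etv1, the remaining PEA3 gene, at 160 CPM in the Meis2 and T cluster and 8.52 CPM in the Rhox cluster. Etv1 was thus highest in a cluster where Etv5 was low. Fosl1 and Ier3, an AP-1 factor and an immediate early gene, stood highest in fibroblast or feeder-like cells at 35.9 and 133 CPM. Phlda1 stood at 176 CPM in the simple epithelium-like cluster and at 3.92 CPM in the shallow one.

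The genes most like each member over the 11 clusters were found by Pearson's r of log2 (CPM + 1) and are given as a description. Fgf8 was most like T (r = 0.98), the streak factor, then Crot and Car3. Fgf4 was most like Mir142hg (0.96), Zfp979 and Ltbp4, and Etv5 most like Slc22a22 (0.99), Sptbn4 and EU599041. Spry2 was most like Sfrp1 (0.95), Lta4h and Eya1, and Dusp6 most like Hmgn3 (0.92), Atxn7l3b and Fjx1. Spry4 was most like Sec23ip (0.90), Vegfc and Cadps, Etv4 most like Tro (0.91), Itpkb and Rabl6, and Fgf17 most like Mrpl37 (0.81), Sall3 and Stmn2. With 11 points from 1 library and all genes of at least 20 CPM searched, high values of r arise readily, and those for Fgf17 were the lowest.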

How the data were processed

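Raw UMI counts per gene and barcode were deposited by the authors; Cell Ranger 8.0.1 made them, per the file headers. The submitters' processing notes also list Seurat. The genome build is not given in the sources used here. A deposited tag table gives an assignment probability, a fraction, per called cell, and leaves 99.4% of called cells without a tag. All values here were computed from the counts with Python 3.11.15 and scanpy 1.11.5. Each cell was scaled to 10000 counts and taken to logs, and 2000 variable genes (without the 8 members, the pathway lists and cell cycle genes) gave 30 components, 15 neighbours and Leiden clusters at resolution 0.5. CPM came from summed UMIs with exact Poisson intervals; ratios have exact conditional binomial intervals, and folds of ranges used a pseudocount of 1 CPM. Shares and splits used cells thinned to 2000 UMIs, without 294 cells that were shallower. Cell-free droplets were 72027 uncalled barcodes. Doublets were called by Scrublet and left in. Clusters of at least 100 cells were named by a list when 3 or more of its markers were raised. The 10 leading genes also had to hold more than 2 times as many genes of that list as of any other. The text names all 8 members, up to 4 genes per pathway list with the largest ratio between clusters and the 3 genes most like each member; Fgfr1, Fgfr2 and Fgf5 were named after their values were seen. The members and lists were chosen with earlier results of these data known. A gene of the relay list is not reported here and was left out of that list's count. The script for ratios was tested on simulated data. Entries of the RefSeq promoter table were used for 4 of the 8 members, and entries for part of the genome were left out of that search.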

Additional observations from a re-analysis of the deposited data

Results flagged for a closer look

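Both clusters high in Fgf8 held more of 1 cell tag than cell-free droplets did, and the tag differed between them; tag counts enter no gene level in the report. In the Meis2 and T cluster the median was 2385 UMIs of CMO311, where the 90th percentile of droplets without a cell was 1228 UMIs. In the streak and mesoderm-like cluster it was 2686 UMIs of CMO312, where that percentile was 478 UMIs. The other tag stood at 322 UMIs of CMO312 in the former and 839 UMIs of CMO311 in the latter. The naive pluripotency-like cluster, high in Fgf4, had medians of 1108 and 334 UMIs, both below those percentiles. Other clusters exceeded them too. CMO311 had medians of 3301 UMIs among neuroectoderm-like cells, 2044 among fibroblast or feeder-like cells and 1337 among Ptprt cells, and CMO312 had 1076 among epithelium-like cells, 633 in the shallow cluster and 631 among Car4 cells. The tags match no sample label, so no cell was assigned to a sample from them.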

How the results depend on the processing

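Members that varied at least 4-fold between clusters numbered 5, and between 3 and 7 over 12 alternatives; the only one that moved the count by over 1.5 times was a lower Leiden resolution (0.3), with 3. Other pathway genes numbered 42, and 34 to 49 over the alternatives. Over the alternatives, the ratio of each member's highest to lowest cluster, whichever these were, ranged from 42.7 to 128 for Fgf8, 5.23 to 12.4 for Fgf4, 3.21 to 10.1 for Fgf17, 3.98 to 9.36 for Spry2, 2.96 to 4.97 for Spry4, 3.12 to 5.53 for Dusp6, 1.95 to 4.43 for Etv4 and 3.06 to 7.07 for Etv5. Between the same 2 clusters as in the report, 76 of 85 recomputed log2 ratios stayed within the counting interval, 9 moved and none changed sign. Under a strict filter (at least 2000 genes, at most 5% mitochondrial UMIs) the shallow cluster still held Etv5 at 281 CPM but had too few cells to be ranked, which left the naive pluripotency-like cluster as the peak and a ratio of 3.06. All 16 shares of cells moved when cells were thinned to 4000 UMIs or not thinned, since deeper cells more often hold a UMI. Of 141 recomputed ratios within clusters, 5 left the counting interval and 29 crossed 1. None of these 29 belonged to the 9 ratios (of 72) whose interval had excluded 1. At 4000 UMIs, though, some of these intervals came to include 1. They were Etv5 with Fgf4 in cluster 1 (0.992 to 1.16) and Etv4 with Fgf4 in cluster 2 (0.451 to 1.16). Etv5 in the marker split of cluster 7 (0.733 to 2.15) and Dusp6 with T in cluster 4 (0.845 to 1.47) were the others. The intervals were not adjusted for the number of ratios. Etv4 in cluster 1 split by Fgf17 went from 1.67 (0.598 to 3.77) to 0.409 (0.149 to 0.906) at 4000 UMIs. Where a cluster had no counterpart in another clustering, a member got no value there. No paired analysis was possible because cells could not be assigned to the samples and each group has 1 sample. Depth limits the lowest clusters: Fgf17, Spry4 and Etv4 rested on 5, 14 and 14 UMIs in the Rhox cluster, and Fgf4 on 9 UMIs in the neuroectoderm-like cluster.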
